A study of Mus musculus with 6 samples.

Results

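The genes described here are 47 genes of the cell cycle and of mitosis, listed by name and found as 47 of the 49548 rows of the deposited gene table. They comprise the cyclins and their kinases (CDKs), E2F factors, the replication licensing and DNA synthesis genes, the mitotic machinery and 5 CDK inhibitor genes. The samples were cancer-associated fibroblasts (CAFs) sorted from colonic adenomas of Col6a1-Cre; Rosa26-mTmG mice of the C57/BL6 strain, aged 8 to 10 weeks at the injection of the carcinogen azoxymethane (AOM), which was followed by 3 cycles of the colitis agent dextran sulfate sodium (DSS). In this reporter, Cre driven by Col6a1 sequences replaces membrane Tomato with GFP, so that GFP+ cells are those in which Col6a1-Cre has been active (Col6a1+ CAFs) and Tomato+ cells are the other cells left after CD45+, CD31+, Ter119+ and EpCAM+ cells were gated out (Col6a1- CAFs). All 6 libraries came from this 1 genotype and treatment, 3 of Col6a1+ and 3 of Col6a1- CAFs. The paper's legend counts 3 sequenced samples in total, each a pool of tumors from 5 to 6 mice. This may mean 3 pools that were each sorted into both subsets, but which libraries shared a pool is not stated. RNA was read from the 3′ end of polyadenylated transcripts (QuantSeq), and the deposited value is the log2 of the normalized count plus 1, from which normalized counts are given here. The comparison asks which cell cycle genes differed in transcript level between both CAF subsets of the same adenomas.

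A cell enters the cycle when D-type cyclins activate CDK4 and CDK6, which, with cyclin E and CDK2, phosphorylate the RB protein and free the E2F factors to transcribe the genes of DNA replication. Cyclins A and B with CDK1 then carry the cell through mitosis, whose genes are largely transcribed late in the cycle under FOXM1, B-MYB and the DREAM complex, which binds the cell cycle homology region (CHR) of their promoters. The INK4 inhibitors bind CDK4 and CDK6. They are p16INK4a from Cdkn2a, which also encodes p19ARF, and the products of Cdkn2b and Cdkn2c. The CIP/KIP inhibitors (Cdkn1a, Cdkn1b) bind CDK complexes more broadly. In the colon, dividing cells are concentrated in the epithelium near the crypt base.

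Of the 47 genes, 2 passed the main fit, which took the libraries as unpaired, and both were lower in Col6a1+ CAFs. They were Cdkn2a, with 27.7 ± 30.7 normalized counts against 276 ± 87.2 in Col6a1- CAFs, and Cdkn2b, with 18.0 ± 8.54 against 104 ± 39.8 (SD, n = 3 each). The paper's total of 3 pooled samples would pair the libraries if each pool gave both subsets, but the labels state no pairing. A replicate block was therefore also fitted, on the assumption that the replicate numbers pair the libraries. With this block, neither of these falls passed (limma adjusted p = 0.0797 and 0.142). Both encode inhibitors of cell cycle progression, and no cyclin, CDK, replication or mitosis gene among the other 42 or inhibitor among the other 3 passed the same test. Of the 42, 5 (11.9%) had a nominal p under 0.05 in limma, beside 16.0% of all genes and 25.4% of those averaging 10 or more normalized counts. Limma-voom called none of the 42 either. The share that passed was 4.26% of the 47 genes, beside 4.62% of all 26402 genes tested (1.96% lower and 2.66% higher in Col6a1+ CAFs) and 8.82% of the 13515 that averaged 10 or more normalized counts, as 45 of the 47 did.

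Both genes lie on the minus strand of chromosome 4, and their upstream sequences are shown because theirs were the only changes of the 47 genes that passed. Cdkn2a (ENSMUSG00000044303, chr4:89274471-89294653 on mm10) has 2 starts in the GENCODE annotation, with exon 1 of the p19ARF transcript at 89294334 to 89294653 and exon 1 of the p16INK4a transcript at 89281986 to 89282192. Both transcripts share exon 2 (89276645 to 89276985) and end in the same last exon, up to 89274774, so 3′ counts do not tell p16INK4a from p19ARF. Cdkn2b (ENSMUSG00000073802, chr4:89306289-89311032), which encodes p15INK4b, has its 5′ end 16.4 kb upstream of the p19ARF start. The promoter of the mitotic gene Top2a, the decatenating topoisomerase, is set beside them because it carries many of the motifs that are known for cell cycle genes. The sequences are RefSeq promoter windows of GRCm38.p6 up to the transcript start, 5′ to 3′ on the minus strand. Capitals mark the CHR (TTTGAA or TTCGAA), an E2F site (TTTCGCGC or TTTGGCGC) or a CCAAT box (CCAAT), searched on both strands, with overlaps between motifs allowed.
Cdkn2a, p19ARF start, chr4:89294654-89294869: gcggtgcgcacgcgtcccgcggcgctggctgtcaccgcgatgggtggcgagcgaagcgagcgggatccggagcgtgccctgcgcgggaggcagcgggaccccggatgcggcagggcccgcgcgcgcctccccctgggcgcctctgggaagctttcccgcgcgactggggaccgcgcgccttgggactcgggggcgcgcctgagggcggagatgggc
Cdkn2a, p16INK4a start, chr4:89282193-89282442: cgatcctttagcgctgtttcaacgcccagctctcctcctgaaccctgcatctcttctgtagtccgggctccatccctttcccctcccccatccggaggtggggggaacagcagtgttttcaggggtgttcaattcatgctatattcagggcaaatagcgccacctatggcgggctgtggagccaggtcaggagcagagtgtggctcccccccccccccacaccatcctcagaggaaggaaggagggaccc
Cdkn2b, chr4:89311040-89311282: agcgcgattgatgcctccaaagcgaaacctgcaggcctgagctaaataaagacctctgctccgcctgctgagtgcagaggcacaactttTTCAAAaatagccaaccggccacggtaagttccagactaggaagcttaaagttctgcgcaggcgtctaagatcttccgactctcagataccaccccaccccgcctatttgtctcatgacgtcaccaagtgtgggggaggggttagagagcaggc
Top2a, chr11:99024190-99024439: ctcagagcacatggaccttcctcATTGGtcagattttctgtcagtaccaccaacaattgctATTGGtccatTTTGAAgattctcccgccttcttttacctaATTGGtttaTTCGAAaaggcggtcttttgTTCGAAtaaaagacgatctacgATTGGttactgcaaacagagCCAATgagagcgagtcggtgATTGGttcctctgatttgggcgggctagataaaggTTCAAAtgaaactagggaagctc
Neither stretch upstream of Cdkn2a held any of these motifs, and that of Cdkn2b held 1 CHR. The Top2a stretch held 4 CHR and 6 CCAAT matches, a contrast set by choosing it for its motifs. Other genes of the list, such as Birc5 and Tyms, held none of these motifs in their promoter windows. The GC content was 78.7% upstream of p19ARF, 60.0% upstream of p16INK4a, 53.5% upstream of Cdkn2b and 43.6% upstream of Top2a. A match is only a match of letters, and its absence from a window says nothing of the factor.

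The libraries differed in ways that touch these genes. Each library summed to 3039152 to 3425249 normalized counts, and 18770 to 20511 genes had a count in 5 of the libraries but 14530 in Col6a1+ replicate 1. In that library 7 of the 47 genes were at 0 (Ccne2, E2f2, Foxm1, Aurka, Aurkb, Bub1 and Nusap1), against none in the others, and a 0 allows up to 3 counts, by counting error only. It also had 109 genes at least 4 times above every other library, among genes averaging 10 or more normalized counts, whereas Col6a1- replicate 3 had 61 and the others 1 to 17. Col6a1 itself had 861, 1287 and 1941 normalized counts in Col6a1+ CAFs and 182, 321 and 102 in Col6a1- CAFs (log2 fold change 2.82, limma adjusted p = 0.00613, and 0.0983 with a replicate block). The 10 pan-fibroblast markers summed to 56557 to 72298 in Col6a1+ and 12270 to 21103 in Col6a1- CAFs, and the 8 mural markers to 51602 to 104287 against 1521 to 3960. The gated-out types were measured too, with 16 epithelial markers at 6599 to 8941 against 28501 to 47138. All 16 had negative log2 fold changes, and 11 passed as lower in Col6a1+ CAFs, beside 1.96% of all genes tested. With the replicate block over all genes, no marker of any of these lists passed, nor did any other gene. In every Col6a1- library the epithelial sum was above the pan-fibroblast sum, although the lists differ in length. The 16 immune markers, 2 of them (Cd3g and Ms4a1) at 0 in every library, were at 73 to 137 against 355 to 701. The 12 endothelial markers summed to 1245 to 1683 against 464 to 883, but 10 of them had negative log2 fold changes. Without Esam and Tie1, the 2 that were higher in Col6a1+ CAFs, the other 10 summed to 148, 218 and 406 in Col6a1+ and 409, 783 and 630 in Col6a1- CAFs, a split made after their values were seen. Erythroid (110 to 1713 against 281 to 482) and glial markers (56 to 73 against 29 to 77) overlapped between the groups. The part of the epithelial, immune and endothelial transcripts in the results below was not tested, and in such bulk samples fewer cells of a type and less RNA per cell cannot be told apart.

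Positive log2 fold changes stand for a higher mean log2 level in Col6a1+ CAFs, and since 1 was added before the log they understate the change of low genes. Of the 47 genes, 17 had a positive and 29 a negative log2 fold change, and 1 was equal. The median was -0.35, beside -0.27 over all genes tested and -0.15 over those averaging 10 or more normalized counts, and 61.7% were negative, beside 57.9% of all genes. In the 42 genes that are not inhibitors the split was 15 positive and 26 negative with a median of -0.32. The 3 libraries of each group did not overlap for 10 of the 47 genes (21.3%), 7 with Col6a1+ CAFs below and 3 above, against 19.5% of all genes tested (11.6% below and 7.91% above) and 31.7% of those averaging 10 or more. A looser criterion took a nominal p under 0.05 and a log2 fold change beyond 1 in either direction. It was met by 5 genes, all on the low side in Col6a1+ CAFs (E2f2, Mcm3, Birc5, Cdkn2a and Cdkn2b), which is 10.6% of the 47 against 14.7% of all genes (8.61% on the low side) and 23.0% of those averaging 10 or more. A 95% interval within a 2-fold change in either direction was reached by 3 genes (Cdk2, Mcm6 and Pcna), so for most of the others neither a change of that size nor its absence was shown.

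**Figure D1:**
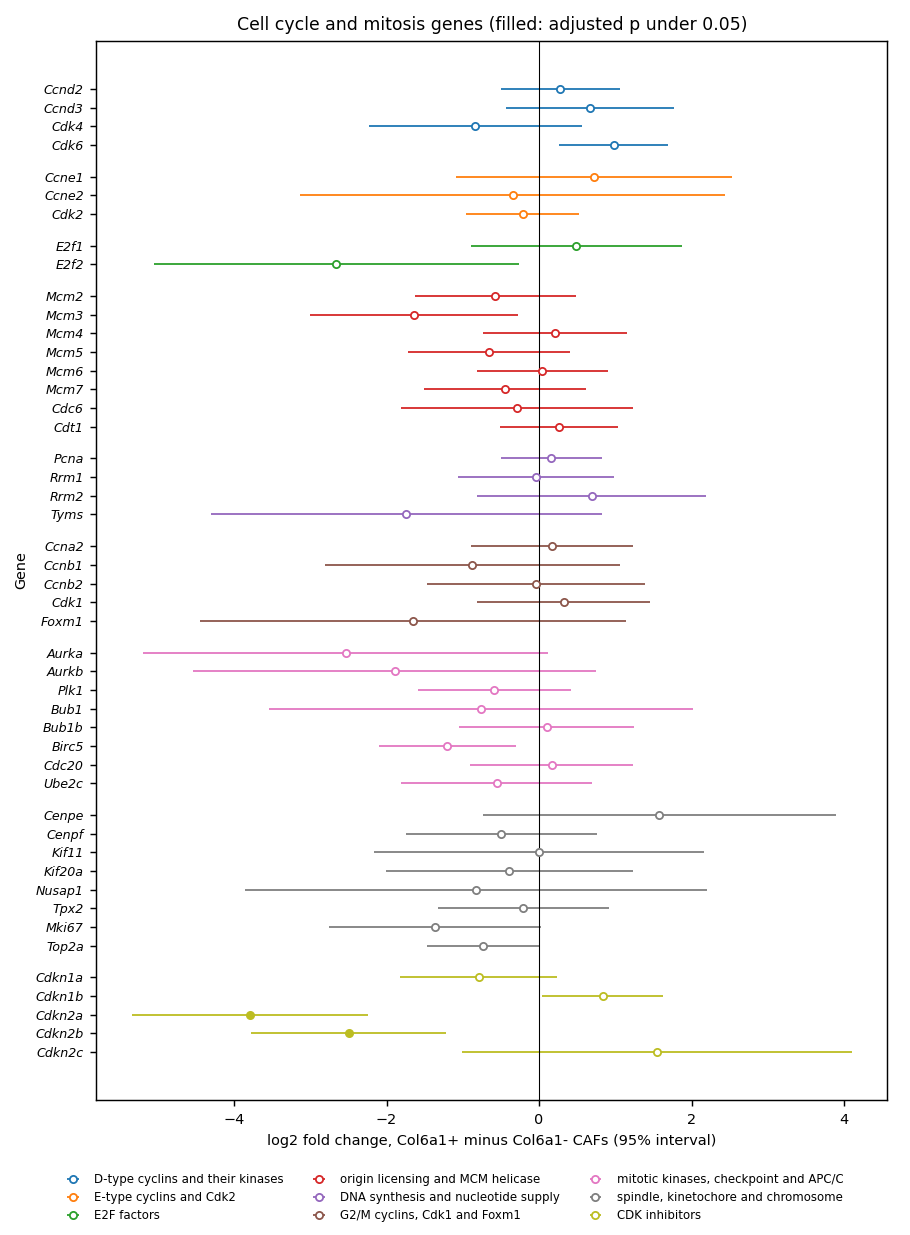
Log2 fold change (x axis) of each of the 47 genes (y axis), grouped and coloured by role, with points for the estimate and bars for the limma 95% interval. Only Cdkn2a at -3.79 and Cdkn2b at -2.49 are filled, marking an adjusted p under 0.05, and most other intervals span 0.

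Among the inhibitors, Cdkn2a had 63, 7 and 13 normalized counts in the Col6a1+ libraries and 301, 179 and 348 in the Col6a1- libraries. Every Col6a1- library was above every Col6a1+ library, and the mean was 9.98 times higher. Its log2 fold change was -3.79 (SE, the standard error, 0.70, 95% interval -5.33 to -2.25, limma with Benjamini-Hochberg adjusted p = 0.0129). Cdkn2b had 9, 26 and 19 normalized counts in Col6a1+ and 113, 60 and 138 in Col6a1- CAFs. The groups did not overlap here either, the Col6a1- mean was 5.76 times higher, and the log2 fold change was -2.49 (SE 0.58, 95% interval -3.77 to -1.22, limma adjusted p = 0.0361). In both genes, replicate 2 was the lowest of the Col6a1- libraries and replicate 3 the highest. With the replicate block over all genes, neither these nor any other gene of the table passed. Both passed with this block when the fit held the 13515 genes averaging 10 or more normalized counts (limma adjusted p = 0.00492 and 0.0305). That alternative was chosen after seeing the data and called 13.7% of its genes. The fall of Cdkn2a passed without Col6a1+ replicate 1 (limma adjusted p = 0.0190) but not without any other library, and that of Cdkn2b did not pass without any of the 6, with log2 fold changes of -4.66 to -3.16 and -2.84 to -2.09. The summed epithelial markers, which were 4.99 times higher in Col6a1- CAFs, and the summed immune markers, also 4.99 times higher, differed in the same direction as both genes. Among the Col6a1- libraries, the epithelial sums were 28501, 47138 and 43193 and the immune sums 355, 701 and 571. Both sums were highest in replicate 2, but the order varied between markers. Among the epithelial ones, Cdh1 was highest in replicate 2 (10493, 15452 and 11963) and Krt18 in replicate 3 (1754, 1921 and 2234). Among the immune ones, S100a8 was highest in replicate 2 (211, 387 and 167) and Laptm5 in replicate 3 (36, 159 and 229). The part of these cell types in both genes was not tested.

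Of the other inhibitors, Cdkn1a, the p53 target p21, had the most normalized counts, with 224, 433 and 461 in Col6a1+ and 381, 486 and 1259 in Col6a1- CAFs. The groups overlapped, and Col6a1- replicate 3 was 2.59 times above the next library. The log2 fold change was -0.79 (SE 0.46, limma adjusted p = 0.452), and -0.28 without that library. Cdkn1b, which encodes p27, had 234, 182 and 190 against 128, 141 and 78 normalized counts, so that Col6a1+ CAFs were above in every library, but its log2 fold change of 0.84 (SE 0.36) did not pass (limma adjusted p = 0.279). Cdkn2c, the INK4 inhibitor p18, had 3, 55 and 39 against 3, 17 and 4, with overlapping groups and a log2 fold change of 1.55 (SE 1.15, limma adjusted p = 0.589). These latter 2 genes were singled out after their values were seen, because their log2 fold changes had the opposite sign to those of Cdkn2a and Cdkn2b. Summed, the 5 inhibitors reached 533, 703 and 722 normalized counts in Col6a1+ and 926, 883 and 1827 in Col6a1- CAFs.

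**Figure D2:**
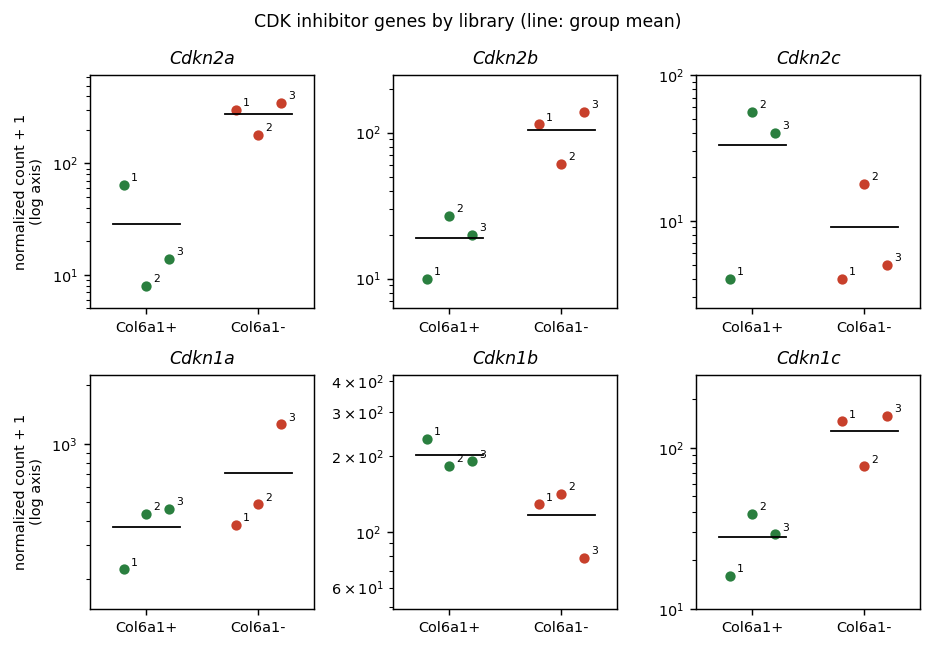
Normalized counts plus 1 on a log y axis for the 5 CDK inhibitor genes and for Cdkn1c, 1 point per library labelled with its replicate number, with a line at the group mean. In Cdkn2a, Cdkn2b and Cdkn1c all Col6a1- libraries lie above all Col6a1+ libraries, in Cdkn1b the order is the opposite, and in Cdkn2c and Cdkn1a the groups overlap.

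The genes around Cdkn2a and Cdkn2b were read as well, a comparison chosen after their values were seen. The window was centred on these genes because they had passed, so only the other genes in it add to them. Within 500 kb of Cdkn2a, 4 genes averaged 10 or more normalized counts. Mtap, the methylthioadenosine phosphorylase gene between 89137122 and 89181081, had 9, 94 and 129 against 155, 112 and 84, with overlapping groups (log2 fold change -1.20, limma adjusted p = 0.539). Mir31, a microRNA gene at 88910557 to 88910662, had 0, 5 and 5 normalized counts in Col6a1+ CAFs and 73, 41 and 72 in Col6a1- CAFs. The groups did not overlap, and its log2 fold change was -4.21 (SE 0.92, limma adjusted p = 0.0287, and 0.120 with the replicate block). Reads of polyadenylated RNA at this place do not measure the mature microRNA.

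**Figure D3:**
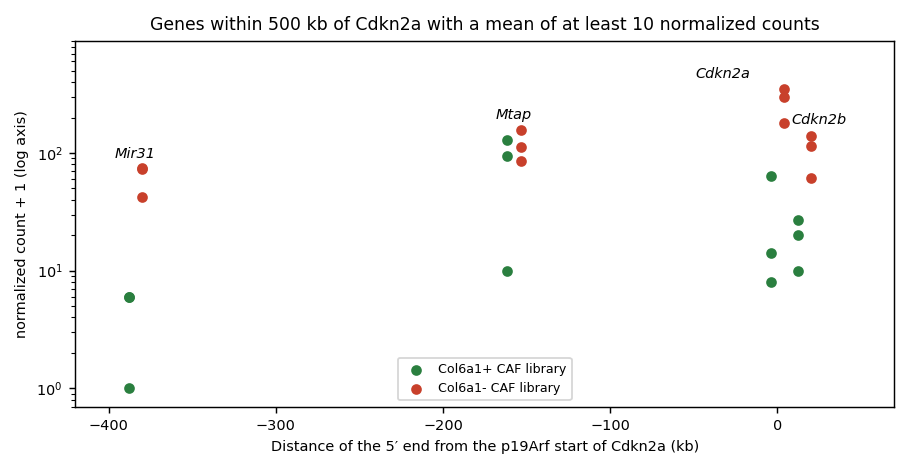
Normalized counts plus 1 (log y axis) of the 4 genes averaging 10 or more within 500 kb of Cdkn2a, by the distance of their 5′ end from the p19ARF start in kb (x axis), with Col6a1+ libraries in green and Col6a1- libraries in red, shifted slightly to either side. The colours separate for Mir31, Cdkn2a and Cdkn2b and mix for Mtap.

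The targets of the INK4 inhibitors are the kinases CDK4 and CDK6, which work with the D-type cyclins. None of these 4 genes passed, and 3 had positive log2 fold changes (range -0.84 to 0.98). Cdk6 had 489, 480 and 598 normalized counts in Col6a1+ and 194, 250 and 375 in Col6a1- CAFs. Every Col6a1+ library was above every Col6a1- library (522 ± 65.7 against 273 ± 92.7, SD, n = 3 each), with a log2 fold change of 0.98 (SE 0.32, 95% interval 0.27 to 1.69, limma adjusted p = 0.133). It was called higher with the replicate block among genes averaging 10 or more (limma adjusted p = 0.0438), an alternative chosen after seeing the data that called 13.7% of its genes, and not with the block over all genes (adjusted p = 0.144). Ccnd2, a D-type cyclin, had 1565, 2645 and 2573 against 1326, 1596 and 2810 normalized counts, with overlapping groups and a log2 fold change of 0.28 (95% interval -0.50 to 1.06, limma adjusted p = 0.652). Ccnd3 and Cdk4 overlapped too, and each shares its place with a gene on the opposite strand that has counts (Bysl and Tspan31), so their counts are uncertain, since the sources used here do not say whether strand was used in counting.

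Cyclin E and its kinase CDK2 act at the step into S phase, and none of their 3 genes passed (log2 fold changes -0.35 to 0.72). Ccne1, a cyclin E gene, had 74, 12 and 43 against 21, 43 and 9 normalized counts, and the groups overlapped (log2 fold change 0.72, SE 0.82, limma adjusted p = 0.642, and 0.17 without Col6a1+ replicate 1). Cdk2 had 159, 106 and 137 against 150, 168 and 143. It was one of the 3 genes of the list whose 95% interval lay within a 2-fold change. Its log2 fold change was -0.21 (95% interval -0.95 to 0.53, limma adjusted p = 0.733).

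The transcription factors E2F1 and E2F2, which turn on replication genes, gave opposite signs. E2f2 had 0, 8 and 11 normalized counts in Col6a1+ CAFs and 16, 42 and 36 in Col6a1- CAFs. The groups did not overlap, but the log2 fold change of -2.66 (SE 1.08) did not pass (limma adjusted p = 0.244), and it was -1.53 without Col6a1+ replicate 1, where the gene was at 0. E2f1 had 33, 124 and 116 against 28, 93 and 65, with overlapping groups and a log2 fold change of 0.49 (SE 0.63, limma adjusted p = 0.662). Replicate 1 was the lowest library of both groups for E2f1.

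The 8 licensing genes, 6 subunits of the MCM2-7 replicative helicase and its loaders Cdc6 and Cdt1, had log2 fold changes of -1.64 to 0.26, 3 positive and 5 negative, and none passed. Mcm3 had 43, 86 and 75 normalized counts in Col6a1+ CAFs and 113, 126 and 606 in Col6a1- CAFs. The groups did not overlap, but Col6a1- replicate 3 was 4.81 times above the next library, and the log2 fold change was -1.64 (SE 0.61, limma adjusted p = 0.195) with that library and -0.86 without it. The other subunits went the other way in that library, since 5 of the 6 MCM genes had their lowest Col6a1- value there. Without Mcm3, the licensing genes summed to 621, 530 and 645 normalized counts in Col6a1+ and 794, 755 and 430 in Col6a1- CAFs, so the groups overlapped through Col6a1- replicate 3. Mcm6, singled out after its values were seen, was among the evenest genes, with 173, 138 and 160 against 200, 191 and 91 (log2 fold change 0.04, 95% interval -0.82 to 0.90). The counts of Mcm7 and Cdt1 are uncertain, as Mcm7 overlaps Cops6, Ap4m1, Mir25 and Mir93 and Cdt1 lies inside Gm20388 on the same strand. The same holds for Ccne2, Ccna2, Cdc20, Kif20a, Plk1, Ube2c and Nusap1, which overlap Ints8, Exosc9, Elovl1, Cdc23, Gm44985, Tnnc2 and Oip5 on the opposite strand.

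Of the 4 genes of DNA synthesis, the replication clamp Pcna had 272, 270 and 365 normalized counts in Col6a1+ and 291, 233 and 282 in Col6a1- CAFs. The libraries of both groups were interleaved, and the log2 fold change of 0.16 had a 95% interval of -0.49 to 0.82 (limma adjusted p = 0.776). Tyms, the thymidylate synthase gene, had 54, 34 and 32 against 34, 44 and 1510. A single library set its log2 fold change of -1.74 (SE 1.16, limma adjusted p = 0.519), as Col6a1- replicate 3 was 28.0 times above the next library and the value was 0.0078 without it. The genes of the ribonucleotide reductase subunits, Rrm1 and Rrm2, had log2 fold changes of -0.04 and 0.69, with overlapping groups.

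The genes of the step from G2 into mitosis are the cyclins Ccna2, Ccnb1 and Ccnb2, their kinase Cdk1 and the factor Foxm1, with log2 fold changes of -1.65 to 0.32 and none past the test. Cdk1 had 358, 105 and 99 normalized counts in Col6a1+ CAFs and 122, 170 and 92 in Col6a1- CAFs. Col6a1+ replicate 1 was 2.11 times above the next library, the others overlapped, and the log2 fold change of 0.32 (SE 0.51, limma adjusted p = 0.734) was -0.28 without it. Foxm1 had 0, 20 and 35 against 50, 32 and 13, with overlapping groups and a log2 fold change of -1.65 (SE 1.26, limma adjusted p = 0.596), which was -0.06 without Col6a1+ replicate 1. Summed, these 5 genes had 441, 199 and 282 normalized counts in Col6a1+ and 266, 347 and 177 in Col6a1- CAFs.

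The mitotic kinases Aurka, Aurkb and Plk1, the checkpoint genes Bub1 and Bub1b, Birc5 of the chromosomal passenger complex, and Cdc20 and Ube2c of the anaphase-promoting complex gave 6 negative and 2 positive log2 fold changes with a median of -0.67. Birc5, which encodes survivin, had 95, 127 and 87 normalized counts in Col6a1+ and 147, 374 and 236 in Col6a1- CAFs. The groups did not overlap (103 ± 21.2 against 252 ± 114, SD, n = 3 each), and its log2 fold change was -1.20 (SE 0.40, 95% interval -2.10 to -0.31, limma adjusted p = 0.143). It was called lower with the replicate block among genes averaging 10 or more (limma adjusted p = 0.0484), the alternative chosen after seeing the data. It was not called with the block over all genes (adjusted p = 0.159). Aurka had 0, 25 and 11 against 73, 54 and 14 normalized counts. Here the groups overlapped, and the log2 fold change of -2.54 (SE 1.20, limma adjusted p = 0.336) was -1.16 without Col6a1+ replicate 1. The summed level of these 8 genes was 384, 394 and 355 in Col6a1+ and 513, 920 and 482 in Col6a1- CAFs, a sum chosen after its values were seen, without overlap between the groups and with Birc5 as its largest part in each Col6a1- library. Without Birc5 the sums overlapped, at 289, 267 and 268 against 366, 546 and 246.

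Of the 8 genes of the spindle, the kinetochore and the mitotic chromosome, 6 had negative log2 fold changes, 1 positive and 1 was equal. Top2a had 108, 113 and 105 normalized counts in Col6a1+ CAFs and 166, 222 and 162 in Col6a1- CAFs. The Col6a1+ libraries lay close together, all below the Col6a1- libraries (109 ± 4.04 against 183 ± 33.5, SD, n = 3 each), and the log2 fold change of -0.73 (SE 0.33) did not pass (limma adjusted p = 0.307). Mki67, the gene of the proliferation antigen Ki-67, which was singled out after its values were seen, had 13, 12 and 16 against 24, 47 and 43. It did not overlap either, but was low in all libraries, and its log2 fold change was -1.36 (SE 0.63, 95% interval -2.75 to 0.03, limma adjusted p = 0.322). Cenpe, a kinetochore motor, was the member with a positive value, with 48, 5 and 8 against 4, 4 and 3 normalized counts. It rested on Col6a1+ replicate 1, since the log2 fold change of 1.58 (SE 1.04, limma adjusted p = 0.519) was 0.66 without it. Kif11, a spindle motor that was singled out in the same way, had 4, 12 and 4 normalized counts in both groups.

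**Figure D4:**
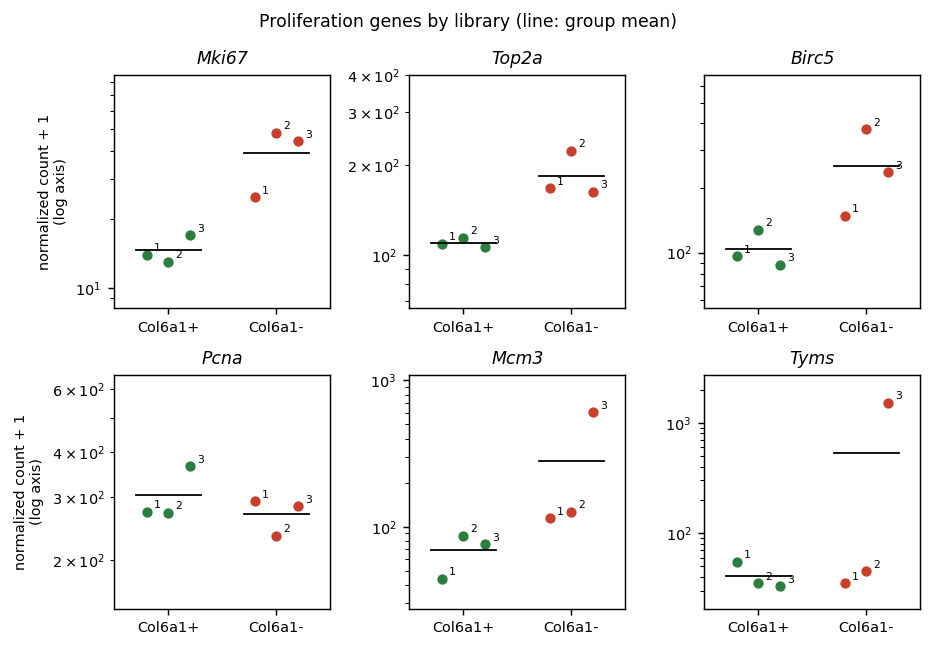
Normalized counts plus 1 on a log y axis for 6 genes of proliferation, 1 point per library labelled with its replicate number, with a line at the group mean. Mki67, Top2a and Birc5 are higher in every Col6a1- library, Pcna is interleaved, and the Col6a1- means of Mcm3 and Tyms are set by replicate 3, at 606 and 1510 normalized counts.

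Over all 42 genes that are not inhibitors, the summed normalized counts were 5060, 5856 and 6343 in Col6a1+ CAFs and 4509, 5841 and 7692 in Col6a1- CAFs. The groups overlapped, with a Col6a1- library at either end. The highest sum was that of Col6a1- replicate 3, and without Mcm3 and Tyms the sums of the remaining 40 genes were 4963, 5736 and 6236 against 4362, 5671 and 5576. Without Ccnd2, which had the most normalized counts of the list, the other 41 genes summed to 3495, 3211 and 3770 against 3183, 4245 and 4882.

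**Figure D5:**
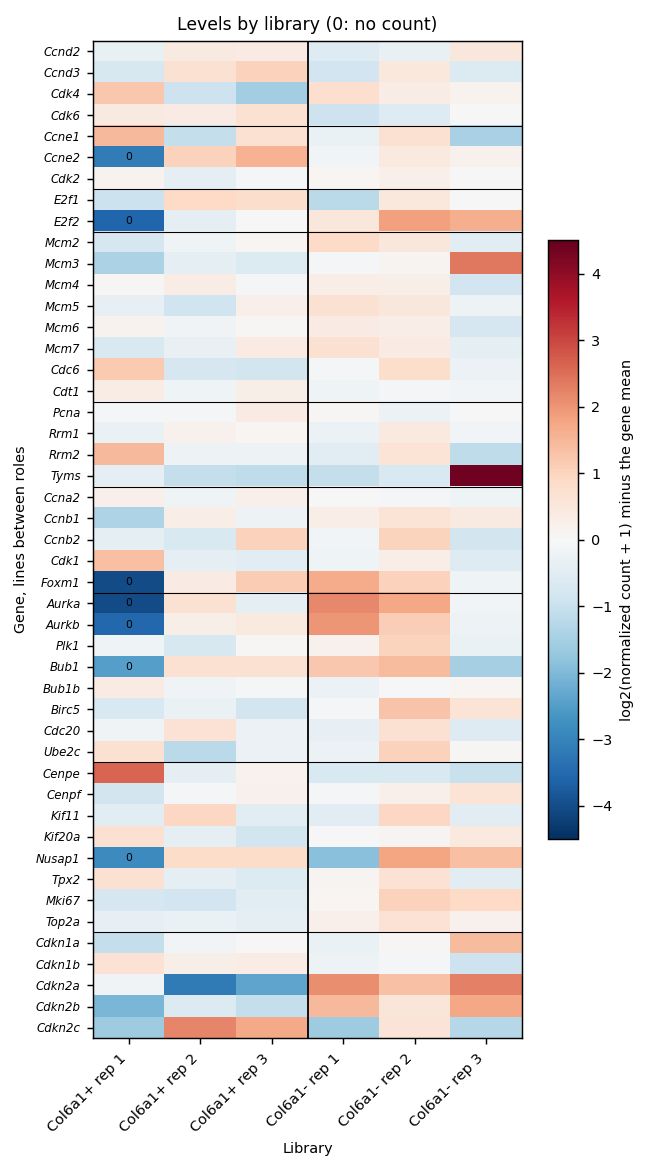
Log2 of the normalized count plus 1, minus the mean of the gene over the 6 libraries, for each of the 47 genes (rows, ordered by role) in each library (columns), with 0 written where a gene had no count. The rows of Cdkn2a and Cdkn2b are blue in the Col6a1+ and red in the Col6a1- libraries, all 7 zeros are in Col6a1+ replicate 1, and Tyms and Mcm3 stand out in Col6a1- replicate 3.

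A further 135 genes of the cell cycle, 40 of replication, 56 of mitosis and 39 regulators, were read in the same fit. Of these, 2 passed, both lower in Col6a1+ CAFs, which is 1.48%, beside 4.62% of all genes. Among genes averaging 10 or more normalized counts, as 111 of the 135 did, the share was 8.82%. The log2 fold changes were positive for 44 and negative for 91, with a median of -0.42. One of the 2 was a further CDK inhibitor, Cdkn1c, which encodes p57 and had 15, 38 and 28 normalized counts in Col6a1+ and 145, 76 and 157 in Col6a1- CAFs. All Col6a1- libraries were above the Col6a1+ libraries, by a log2 fold change of -2.21 (SE 0.52, limma adjusted p = 0.0378, and 0.152 with the replicate block). The other was Stmn1, whose product stathmin destabilizes microtubules, with 69, 236 and 164 against 908, 405 and 903. It did not overlap either (log2 fold change -2.31, SE 0.48, limma adjusted p = 0.0239, and 0.165 with the replicate block). As for Cdkn2a and Cdkn2b, replicate 2 was the lowest of the Col6a1- libraries for both genes, and neither passed when any 1 library was left out. None of the 40 replication genes passed in limma, and 4 of them had a nominal p under 0.05, beside 16.0% of all genes.

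The promoters of the members share motifs that were not used to list them. RefSeq windows from 250 bases before to 50 bases after the start were at hand for 39 of the 47 genes. A CHR was held by 16 of the 39 (41.0%), beside 21.7% of 27025 genes with windows of the same length, and a CCAAT box by 28 (71.8%), beside 41.1%. An E2F site was held by 7 (17.9%), beside 0.929%. These were Cdk1, Cdt1, E2f2, Mcm3, Mcm5, Mcm6 and Mcm7, so that 4 of them encode MCM subunits. A CHR and a CCAAT box together were held by 15 genes (38.5%), beside 9.65% of all genes. They were Aurka, Bub1, Bub1b, Ccnb2, Cdc20, Cdk1, Cenpf, E2f2, Kif11, Mcm2, Mcm7, Mki67, Plk1, Top2a and Ube2c. The inhibitors were not among these 15, as Cdkn2b held a CHR alone, Cdkn1b, Cdkn2a (at or after the p16INK4a start, outside the stretch shown) and Cdkn2c a CCAAT box alone, and Cdkn1a none of these motifs.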

How the data were processed

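The 6 libraries were grouped by the titles in their labels, 3 Col6a1+ (GFP) and 3 Col6a1- (Tomato). The authors mapped the reads to mm10 with TopHat2, mapped the remainder with Bowtie2, summarized reads by gene using GenomicRanges and scaled them by DESeq within metaseqR, and the deposited values are the log2 of the normalized count plus 1, all of them whole counts before the log to within 1e-06. The 6 further columns of per-sample values and the authors' own p-values and fold changes were not used. With limma 3.58.1 in R 4.3.3 both groups were compared in the 26402 genes whose normalized counts totalled 1 or more (lmFit, eBayes with trend, 4 residual and 6.48 prior degrees of freedom, two-sided, Benjamini-Hochberg), and called at an adjusted p under 0.05. The script was tested on simulated data.

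The members and gene lists were chosen with earlier results of these data known. Values per library are given for members that passed and, in each role, for that with the largest absolute log2 fold change and that with the most counts. Genes singled out otherwise are named as such. Of the other cell cycle genes, those that passed are named. Deviations from the group means, over 13515 genes, correlated at 0.245, 0.125 and 0.144 where the replicate numbers matched and at -0.245 to 0.150 otherwise. The highest unmatched value was above the matched 0.125 and 0.144, and the labels state no pairing. That the numbers pair the libraries was therefore only assumed. A fit with a replicate block is quoted beside the calls of members and other cell cycle genes that it alters. The p-values of the main fit measure the spread between these pooled samples, taken as unpaired. If both subsets came from the same pools, that fit leaves the pairing out. Sequences are RefSeq promoter windows (GRCm38.p6) and exons are from GENCODE M21. Tables and plots were made with Python 3.11.15, pandas 2.3.3 and Matplotlib 3.10.9.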

Additional observations from a re-analysis of the deposited data

How the results depend on the processing

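Of the 47 genes, Cdkn2a and Cdkn2b were also the ones lower with scaling to library size, among genes averaging 10 or more and with limma-voom. The count was 1 with a pseudocount of 0.1 (Cdkn2a), and 0 where every library had to reach 10, which leaves 32 members and removes both, and 0 without a filter, where 49548 rows are adjusted for. It was 0 to 1 when 1 library was left out (Cdkn2a without Col6a1+ replicate 1) and 5 under the looser criterion. With the replicate block over all genes it was 0, and 0 genes of the table passed in either direction, although 4418 had an unadjusted p under 0.05 and the smallest limma adjusted p was 0.0612. With the block among genes averaging 10 or more, added after seeing the data, 3 members were lower (Birc5 besides) and 1 was higher (Cdk6). The block changed no other call of a member.

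Over all genes, 703 were higher and 517 were lower in Col6a1+ CAFs. These counts were 21 and 7 without a filter, 561 and 336 with a pseudocount of 0.1, 771 and 798 with limma-voom, 981 and 871 with the block among genes averaging 10 or more and 1607 and 2273 under the looser criterion. With 1 library left out they were 11 to 453 and 1 to 442, lowest without Col6a1- replicate 1. Col6a1 kept a log2 fold change of 2.82 but did not pass without a filter (limma adjusted p = 0.147) or with the replicate block (adjusted p = 0.0983), and with 1 library left out it ranged from 2.41 to 3.23, passing without Col6a1+ replicate 1 or Col6a1- replicate 2 (adjusted p = 0.0348 and 0.0405) and not without the others (adjusted p = 0.0542 to 0.106).

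With 1 library left out, log2 fold changes ran from -2.71 to 0.0078 for Tyms, positive without Col6a1- replicate 3, and from -0.28 to 0.64 for Cdk1, negative without Col6a1+ replicate 1, neither of which passed in any fit. Over 23 named genes, 277 of 314 values under an alternative kept their sign and side of the threshold. Most of these genes had no call in the main fit, so this total says little of how stable the calls were. All 33 values that lost a call belonged to Cdkn2a, Cdkn2b, Cdkn1c and Stmn1. With 1 library left out, 15 to 22 of the 47 genes had a positive log2 fold change, and the median stayed between -0.32 and -0.16. The causes of these changes were not tested. The summed level of the 42 genes that are not inhibitors was lower by 261 normalized counts in Col6a1+ CAFs, within the SD of 1599 of the Col6a1- libraries. It was also lower, within the SD, with scaling to library size. Without Mcm3 and Tyms the sums were 4963, 5736 and 6236 in Col6a1+ and 4362, 5671 and 5576 in Col6a1- CAFs. The mean sum was then higher in Col6a1+ CAFs. Groups of 3 libraries and levels below about 10 normalized counts limit what these fits can show.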
